A study of Mus musculus with 9 samples.

Results

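The 9 genes described here encode growth factors that the oocyte secretes and the receptors through which they act: the ligands Gdf9, Bmp15, Bmp6 and Fgf8, the type II receptor Bmpr2, and the type I receptors Bmpr1b, Bmpr1a, Acvr1 and Tgfbr1. They were chosen by gene symbol from what is known of their roles, with earlier results of these data also known. All 9 were found among the 24736 genes of the deposited tables. In ovulated mouse oocytes, transcripts of Gdf9 and Bmp15 were by far the most abundant of the 9, the receptors Bmpr1b and Bmpr2 were present at moderate levels, and Acvr1 and Bmpr1a were the lowest of the 9 relative to transcript length. None of the 9 genes passed the test between any of the groups, in either direction.

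GDF9 and BMP15 are members of the TGF-beta family that are made almost only by oocytes, are released into the follicle, and act on the granulosa and cumulus cells around the oocyte. A ligand of this family brings a type II receptor, which is a constitutively active kinase, together with a type I receptor, which then phosphorylates Smad proteins that enter the nucleus. GDF9 signals through BMPR2 with the type I receptor encoded by Tgfbr1 and so through SMAD2 and SMAD3, whereas BMP15 and BMP6 signal through BMPR2 or related type II receptors with BMP type I receptors and so through SMAD1, SMAD5 and SMAD9. FGF8 acts on FGF receptors and, together with BMP15, promotes glycolysis in mouse cumulus cells. In the follicle these receptors have their best known work in the somatic cells, while the receptor transcripts measured here are those of stripped oocytes and of any cumulus cells left on them.

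The libraries came from female ICR mice in 3 groups of 3. KYZY mice had 6 weeks of daily stressors and afterwards 4 weeks of gavage with 0.1 ml per day of a decoction of the herbal recipe Kai Yu Zhong Yu. Stress mice had the 6 weeks of chronic unpredictable mild stress alone, and control mice had no stress. Every mouse was superovulated with PMSG and then hCG, each at 7.5 IU, and 15 metaphase II oocytes per mouse, collected from the oviduct 16 hours after hCG and stripped of cumulus cells with hyaluronidase, were pooled into 1 library. The labels give the same age of 4 to 5 weeks for all groups and no age at collection, and they name no stressed group that received a gavage without the recipe. The labels of the KYZY libraries also describe another sequencing kit (NovaSeq S4) than those of the stress and control libraries (TruSeq PE Cluster Kit), so that recipe and sequencing cannot be told apart in any comparison with the KYZY group. The 4 weeks of gavage after the stressors are described for the KYZY mice alone. Gavage, time since stress and any difference in age at collection thus also cannot be told apart from the recipe.

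Library totals ran between 46324094 and 106990821 counts, and 13257 to 15802 genes per library were above 0. Levels are given as CPM, the count of a gene relative to its library total, after TMM scaling, a correction for differences in library composition, and unscaled CPM leave that correction out. The tables name no unit. From the frequency of values of 4, 1 read pair was taken as about 4 counts, and the origin of these steps is not known. The oocyte identity of the material was borne by its markers: 13 of 13 oocyte marker genes were above 0 in every library, with a summed level of 21920 to 36260 CPM. Of 26 cumulus and granulosa cell markers, 23 to 25 were above 0 in 4 libraries (KYZY 2, KYZY 3, stress 3 and control 3), with a summed level of 904 to 1790 CPM, while 10 to 20 were above 0 in the other 5 libraries, with a summed level of 622 to 766 CPM. In the other 5 libraries nearly all of that sum came from Serpine2 (359 to 505 CPM) and Sdc1 (173 to 229 CPM). Both were also high in the 4 libraries, at 375 to 970 CPM and 155 to 619 CPM, and gave most of the sum in stress 3, KYZY 2 and control 3. In KYZY 3 they were at 383 and 209 CPM, within a sum of 1295 CPM. Areg was at 0 in all 9 libraries. These 4 libraries stand apart from the rest, and the 9 genes and the pathway lists are therefore also given without them. Oviduct epithelium markers summed to 279 to 511 CPM, of which most was Cdh1, stroma and endothelium markers to 104.6 CPM in KYZY 3 and 81.3 CPM in control 3, against 20.8 to 36.96 CPM in the other 7 libraries, and blood and immune cell markers to 0.546 to 62.05 CPM, with the highest blood value in KYZY 2. The mean log2(CPM + 1) of the oviduct markers was also highest in KYZY 3 (2.60) and control 3 (2.39), against 1.25 to 1.61 in the other libraries.

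Gdf9 lies on the plus strand at chr11:53430774-53437904 of GRCm38.p6 and Bmp15 on the minus strand at chrX:6314054-6320724. Bmp6 (chr13:38345716-38500314, plus strand), Bmpr2 (chr1:59764279-59878081, plus strand) and Tgfbr1 (chr4:47353222-47414926, plus strand) are longer genes. Fgf8 (chr19:45736491-45742941), Bmpr1a (chr14:34411061-34503336), Bmpr1b (chr3:141837135-142169585) and Acvr1 (chr2:58446438-58566828) lie on the minus strand. In the GENCODE annotation, exons of Bmp6 share 224 bases with exons of Txndc5 on the opposite strand, and exons of Bmpr1a share 290 bases with an antisense transcript, Gm17110. The library protocol keeps no strand, so reads from these bases cannot be assigned to one gene or the other.

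Promoter windows of 300 bases, from 250 bases before to 50 bases after an annotated start, were taken from a set of RefSeq windows (GRCm38.p6). The set at hand held windows for 7 of the 9 genes. Shown here are the windows of Bmp15, the most abundant gene with an entry, of Bmpr1b, the most abundant receptor, and of Acvr1, one of the 2 least abundant, because they differ widely in base composition. Capitals mark the letters CANNTG, called an E-box, and the letters TAATTA or TAATTG, searched on both strands. FIGLA, a helix-loop-helix factor of oocytes, binds E-boxes, and NOBOX, a homeobox factor of oocytes, binds TAATTA and TAATTG. The Bmp15 window is chrX:6320675-6320974 (minus strand), that of Bmpr1b is the first of 3 annotated starts, chr3:141982215-141982514 (minus strand), and that of Acvr1 is chr2:58566779-58567078 (minus strand).
Bmp15: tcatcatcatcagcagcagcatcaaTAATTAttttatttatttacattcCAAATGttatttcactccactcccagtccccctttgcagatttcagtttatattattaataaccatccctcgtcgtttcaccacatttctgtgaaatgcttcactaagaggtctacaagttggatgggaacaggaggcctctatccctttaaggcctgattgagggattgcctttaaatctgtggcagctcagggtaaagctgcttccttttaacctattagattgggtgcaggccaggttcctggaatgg
Bmpr1b: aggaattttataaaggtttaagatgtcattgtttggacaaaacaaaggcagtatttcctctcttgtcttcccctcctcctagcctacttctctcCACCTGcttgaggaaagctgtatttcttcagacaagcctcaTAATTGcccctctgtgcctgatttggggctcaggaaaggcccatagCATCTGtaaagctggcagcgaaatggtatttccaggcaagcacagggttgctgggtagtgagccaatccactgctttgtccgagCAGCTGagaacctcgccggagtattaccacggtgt
Acvr1: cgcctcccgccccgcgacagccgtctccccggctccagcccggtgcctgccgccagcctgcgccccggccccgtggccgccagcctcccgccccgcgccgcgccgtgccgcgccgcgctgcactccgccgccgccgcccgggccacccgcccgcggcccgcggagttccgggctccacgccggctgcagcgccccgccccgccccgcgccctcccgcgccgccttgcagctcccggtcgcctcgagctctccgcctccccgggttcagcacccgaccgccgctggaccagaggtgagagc
The Bmp15 window held 41.7% G and C and 2 CpG pairs, with 1 E-box and 1 TAATTA and no overlap between them. The Bmpr1b window held 48.3% G and C and 5 CpG pairs, with 3 E-boxes and 1 TAATTG. Its other windows held fewer motifs. Window 2 of Bmpr1b held 53.0% G and C and 6 CpG pairs, with no E-box, TAATTA or TAATTG. Window 3 held 55.7% G and C and 6 CpG pairs, with 1 E-box and no TAATTA or TAATTG. All 3 windows lie inside the gene and not at its upstream end, which is at 142169585 on the minus strand. The Acvr1 window held 83.7% G and C and 51 CpG pairs and none of the 3 motifs. Over all 32851 RefSeq mouse promoter windows the median was 52.7% G and C and 7 CpG pairs, an E-box occurred in 72.3%, TAATTA in 5.29% and TAATTG in 8.0%. The single Bmpr1a window held 79.3% G and C and 48 CpG pairs, the first Tgfbr1 window 74.7% and 34, the Bmp6 window 69.3% and 27, and the Bmpr2 window 59.3% and 23. The windows of the 2 least abundant receptors were thus the richest in CpG pairs among these, and the window of the abundant ligand Bmp15 was the poorest. The second Tgfbr1 window, not counted among these, held 52.0% G and C and 3 CpG pairs. Gdf9, the most abundant gene, and Fgf8 had no window in the set at hand. These matches describe letters in the windows and not bound sites.

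Levels were compared between genes per kilobase of the longest annotated coding transcript, since longer transcripts give more reads. Gdf9 stood at 7102 ± 1360 CPM per kilobase (SD, n = 9 libraries), Bmp15 at 1162 ± 426 and Bmpr1b at 20.1 ± 3.62 on the same scale. In every library Gdf9 lay above Bmp15 and Bmp15 lay above all 7 other genes, and the ranges of these first 3 genes over the 9 libraries did not overlap one another or that of the gene next in order. Fgf8 followed at 6.18 ± 1.86 CPM per kilobase, Bmpr2 at 3.51 ± 0.756 and Bmp6 at 2.29 ± 0.614. Tgfbr1 was at 1.46 ± 0.652 CPM per kilobase, Acvr1 at 0.504 ± 0.172 and Bmpr1a at 0.503 ± 0.152. Neighbours overlapped in range from Fgf8 down to Tgfbr1, for example Fgf8 with 3.93 to 10.2 and Bmpr2 with 2.11 to 4.31 CPM per kilobase. Their ranges over the libraries thus do not separate neighbours, although Fgf8 lay above Bmpr2 within every library. Beyond neighbours, the range of Fgf8 lay above that of Bmp6, at 1.31 to 3.11 CPM per kilobase, and above that of Tgfbr1. Tgfbr1, at 0.973 to 2.83 CPM per kilobase, lay above Acvr1 at 0.191 to 0.667 and Bmpr1a at 0.292 to 0.695 without overlap, while Acvr1 and Bmpr1a overlapped each other. With the shortest annotated transcript the first 4 genes kept their places, and Tgfbr1 moved to the fifth place at 4.91 CPM per kilobase. The transcript in use in these oocytes was not determined.

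**Figure D1:**
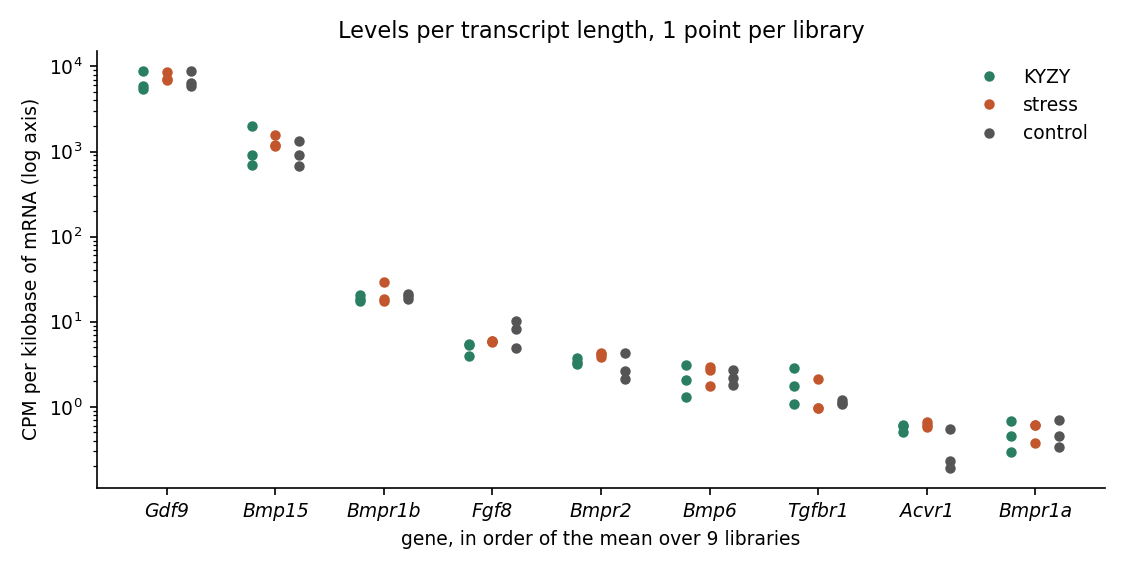
Level of each gene in CPM per kilobase of its longest coding transcript on a log axis, 1 point per library, with KYZY, stress and control libraries from left to right for each gene. Gdf9 at a mean of 7102 and Bmp15 at a mean of 1162 lie far above the other 7 genes, and Acvr1 and Bmpr1a lie lowest at 0.504 and 0.503.

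The 9 genes also differed in how much they varied between libraries. Bmpr1b had a coefficient of variation of 18.0% over the 9 libraries and Gdf9 one of 19.1%, whereas Tgfbr1 had 44.7%, Bmp15 36.7% and Acvr1 34.2%. The highest library exceeded the lowest by a ratio of 1.63 for Gdf9, 1.67 for Bmpr1b, 2.91 for both Bmp15 and Tgfbr1 and 3.49 for Acvr1. For comparison, the median coefficient of variation was 25.97% over the 9764 genes with a mean of at least 1 CPM. Bmpr2 with 21.6% lay below that median, and Bmp6 with 26.9%, Bmpr1a with 30.1% and Fgf8 with 30.2% lay above it.

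Gdf9, which is required for follicles to grow beyond the primary stage in mice, had 16020, 10510 and 9848 CPM in KYZY libraries 1 to 3, against 12820, 12290 and 15490 CPM in stress libraries and 15710, 10460 and 11450 CPM in control libraries. The 3 groups overlapped throughout, and the highest library of each group, KYZY 1, stress 3 and control 1, lay within 15490 to 16020 CPM. In unscaled CPM stress 3 was instead the lowest stress library at 12380, and the groups overlapped as well. The fold change of stress over control was 1.08 (95% interval 0.651 to 1.79), that of KYZY over stress 0.896 (0.540 to 1.49) and that of KYZY over control 0.967 (0.583 to 1.60). Adjusted p values in edgeR's quasi-likelihood test were 1, 0.963 and 0.996 in that order. Together these intervals reached from 0.540 to 1.79, and a p value short of the threshold does not show that the groups are alike. The high level of Gdf9 rests on many reads, 950141 counts in control 1 for instance.

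Bmp15, an X-linked gene whose product pairs with GDF9, had 6089, 2768 and 2149 CPM in KYZY libraries 1 to 3. It had 3584, 4838 and 3618 CPM in stress libraries and 4056, 2815 and 2090 CPM in control libraries. KYZY 1 was the highest of all 9 libraries, and control 3 and KYZY 3 were the lowest, so the KYZY group spanned almost the whole range. The fold change was 1.34 (95% interval 0.702 to 2.57) for stress over control, 0.914 (0.478 to 1.75) for KYZY over stress and 1.23 (0.642 to 2.35) for KYZY over control, with edgeR adjusted p values of 1, 0.973 and 0.996. Leaving out KYZY 1, the difference between KYZY and stress on the log2 scale was -0.71 instead of -0.13, also short of the threshold.

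The amount of Bmp15 relative to Gdf9 is of interest because the pair acts in part as a heterodimer. For every 100 counts of Gdf9 there were 38.0, 26.3 and 21.8 counts of Bmp15 in KYZY libraries 1 to 3, against 27.96, 39.4 and 23.4 in stress libraries and 25.8, 26.9 and 18.3 in control libraries. The means were 28.7 ± 8.35 in KYZY, 30.2 ± 8.24 in stress and 23.7 ± 4.71 in control libraries (SD, n = 3 each), and the ranges of all 3 groups overlapped. The lowest ratio within each group belonged to library 3. These ratios are of counts and are not corrected for transcript length, which is 3060 bases for Bmp15 and 1793 bases for Gdf9. They compare libraries and overstate the amount of Bmp15 relative to Gdf9 per transcript.

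Bmp6, a BMP ligand made by both oocytes and granulosa cells, had 11.2, 4.71 and 7.39 CPM in KYZY libraries 1 to 3, against 10.7, 9.62 and 6.27 CPM in stress libraries and 7.79, 9.80 and 6.56 CPM in control libraries. The groups overlapped. The fold changes were 1.10 (95% interval 0.655 to 1.85) for stress over control, 0.876 (0.522 to 1.47) for KYZY over stress and 0.964 (0.574 to 1.62) for KYZY over control, with edgeR adjusted p values of 1, 0.955 and 0.996. Txndc5, whose exons overlap Bmp6 on the opposite strand, was at 297 to 599 CPM over the 9 libraries. The part of the Bmp6 counts that came from the 224 shared bases was not measured.

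Fgf8, the FGF ligand of the oocyte, had 6.27, 6.46 and 4.59 CPM in KYZY libraries 1 to 3. It had 6.84, 6.77 and 6.95 CPM in stress libraries and 11.9, 9.50 and 5.68 CPM in control libraries. The 3 stress libraries were close together, with an SD of 0.0925 CPM, and all 3 KYZY libraries lay below them after TMM scaling. In unscaled CPM Fgf8 was at 5.35, 6.48 and 4.86 in KYZY libraries 1 to 3 and at 7.40, 7.25 and 5.56 in stress libraries, with an SD of 1.02 in the stress group and KYZY 2 above stress 3. Control 3 lay within the KYZY range, and controls 1 and 2 lay above all other libraries. The fold change of KYZY over control was 0.641 (95% interval 0.414 to 0.993), with an unadjusted p of 0.0472 and an adjusted p of 0.996 by edgeR's quasi-likelihood test, and DESeq2 gave an unadjusted p of 0.071. On the log2 scale this was -0.64, and it was -0.40 without control 1. It was 0.761 (0.492 to 1.18) for stress over control and 0.843 (0.544 to 1.30) for KYZY over stress, with edgeR adjusted p values of 1 and 0.935.

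**Figure D2:**
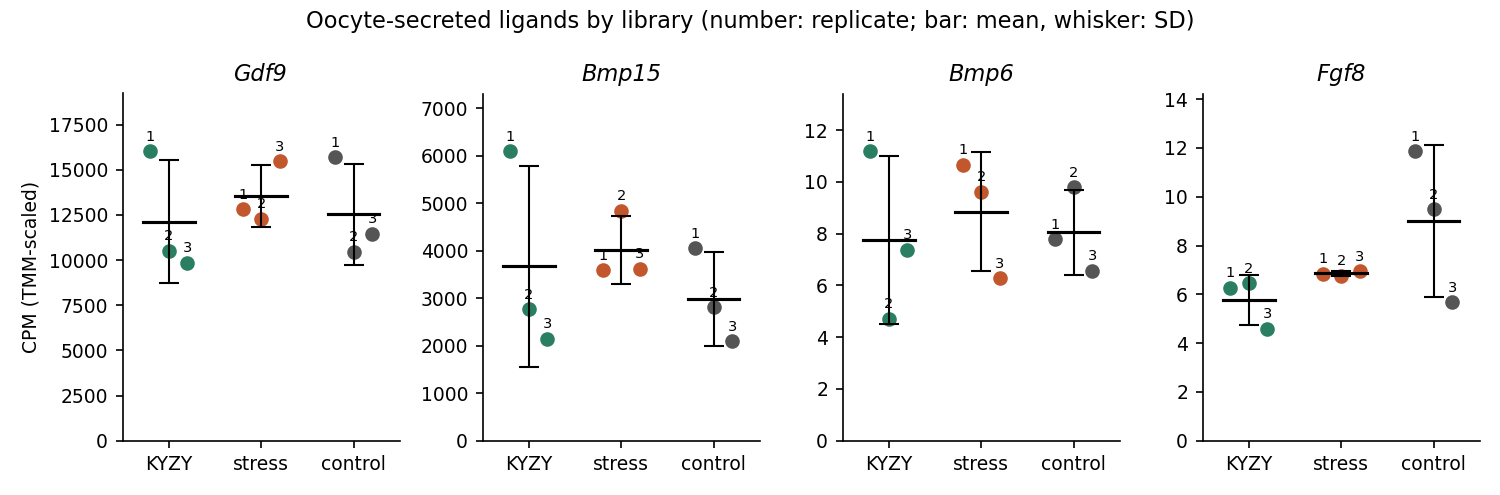
CPM of the 4 ligands in each library, with KYZY, stress and control from left to right, numbered points for libraries, thick bars for means and whiskers for SD (n = 3 each). Gdf9 and Bmp15 overlap between all groups, KYZY 1 is the highest library for Bmp15 at 6089 CPM, and for Fgf8 the 3 KYZY libraries lie below the 3 stress libraries with the TMM scaling plotted, but not in unscaled CPM.

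Bmpr2, the type II receptor used by GDF9, BMP15 and BMP6, had 43.2, 47.7 and 41.0 CPM in KYZY libraries 1 to 3. It had 49.7, 55.6 and 53.2 CPM in stress libraries and 27.2, 34.3 and 55.1 CPM in control libraries. With TMM scaling all 3 KYZY libraries lay below all 3 stress libraries, control 3 lay within the range of the stress group, and controls 1 and 2 lay below every other library. In unscaled CPM KYZY 2 at 47.8 lay above stress 3 at 42.5, and the groups overlapped. The fold change was 1.36 (95% interval 0.927 to 1.99) for stress over control, 0.832 (0.567 to 1.22) for KYZY over stress and 1.13 (0.771 to 1.66) for KYZY over control. The edgeR adjusted p values were 1, 0.935 and 0.996. Control 3 moved the value of stress against control: the log2 difference was 0.79 without it (unadjusted edgeR p of 0.00332, adjusted p of 0.768) and 0.24 without control 1, against 0.44 with all libraries. Without the 4 libraries of high cumulus marker level it was also 0.79, with an adjusted p of 0.117.

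Bmpr1b, a BMP type I receptor known for its effect on ovulation rate in sheep, was the most abundant receptor of the 5. It had 97.8, 109.7 and 93.35 CPM in KYZY libraries 1 to 3, against 94.5, 98.0 and 155.7 CPM in stress libraries and 106, 114 and 98.8 CPM in control libraries. With TMM scaling stress 3 lay above all other libraries and the remaining 8 lay close together, whereas in unscaled CPM control 2 was highest at 145.1 and stress 3 followed at 124.5. Fold changes were 1.09 (95% interval 0.769 to 1.55) for stress over control, 0.864 (0.608 to 1.23) for KYZY over stress and 0.943 (0.664 to 1.34) for KYZY over control, with edgeR adjusted p values of 1, 0.935 and 0.996. The standard error of each of its log2 fold changes was 0.228, the smallest among the 9 genes.

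Acvr1, which encodes the type I receptor ALK2, had 1.67, 1.95 and 2.02 CPM in KYZY libraries 1 to 3. It had 2.196, 1.89 and 2.03 CPM in stress libraries and 0.628, 0.764 and 1.78 CPM in control libraries. With TMM scaling all 3 stress libraries lay above all 3 control libraries, but in unscaled CPM stress 3 at 1.63 lay below control 3 at 1.90. On both scales KYZY 1 lay below control 3. The values rest on few reads, about 26.5, 33.2 and 24.8 read pairs in KYZY, 44.8, 54.2 and 32.8 in stress and 9.5, 20.0 and 34.2 in control libraries, which compares with a floor of 3 read pairs for a gene at 0. The fold change of stress over control was 1.92 (95% interval 0.998 to 3.72), with an unadjusted p of 0.0506 and an adjusted p of 1 by edgeR. DESeq2 gave an unadjusted p of 0.0449 and an adjusted p of 1. The fold change was 0.922 (0.481 to 1.77) for KYZY over stress and 1.78 (0.921 to 3.43) for KYZY over control, with edgeR adjusted p values of 0.976 and 0.996. The value moved with the controls: the log2 difference between stress and control was 1.55 without control 3 and 0.68 without control 1, against 0.945 with all libraries.

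Bmpr1a, which encodes the type I receptor ALK3, had 1.74, 4.04 and 2.73 CPM in KYZY libraries 1 to 3, against 3.66, 2.26 and 3.68 CPM in stress libraries and 2.02, 4.14 and 2.71 CPM in control libraries. The 3 groups covered nearly the same range. Fold changes were 1.08 (95% interval 0.586 to 1.99) for stress over control, 0.888 (0.481 to 1.64) for KYZY over stress and 0.959 (0.520 to 1.77) for KYZY over control, with edgeR adjusted p values of 1, 0.969 and 0.996.

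Tgfbr1, which encodes ALK5, the type I receptor of GDF9 signalling, had 6.13, 16.3 and 10.1 CPM in KYZY libraries 1 to 3. It had 5.62, 5.60 and 12.3 CPM in stress libraries and 6.88, 6.38 and 6.24 CPM in control libraries. KYZY 2, stress 3 and KYZY 3 stood above 10 CPM, and the other 6 libraries lay between 5.60 and 6.88 CPM. The fold change was 1.21 (95% interval 0.657 to 2.22) for stress over control, 1.39 (0.754 to 2.55) for KYZY over stress and 1.67 (0.907 to 3.08) for KYZY over control, with edgeR adjusted p values of 1, 0.935 and 0.996. On the log2 scale the difference between KYZY and stress was 0.47, and it ran between 0.049 without KYZY 2 and 0.951 without stress 3 when 1 library was left out. That between KYZY and control was 0.74, and 0.32 without KYZY 2 to 1.02 without KYZY 1. The 3 high libraries, which were also the 3 highest in unscaled CPM, are 3 of the 4 that carried the most cumulus and granulosa cell transcripts. In a bulk sample, fewer cells of a type and less RNA per cell cannot be told apart.

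**Figure D3:**
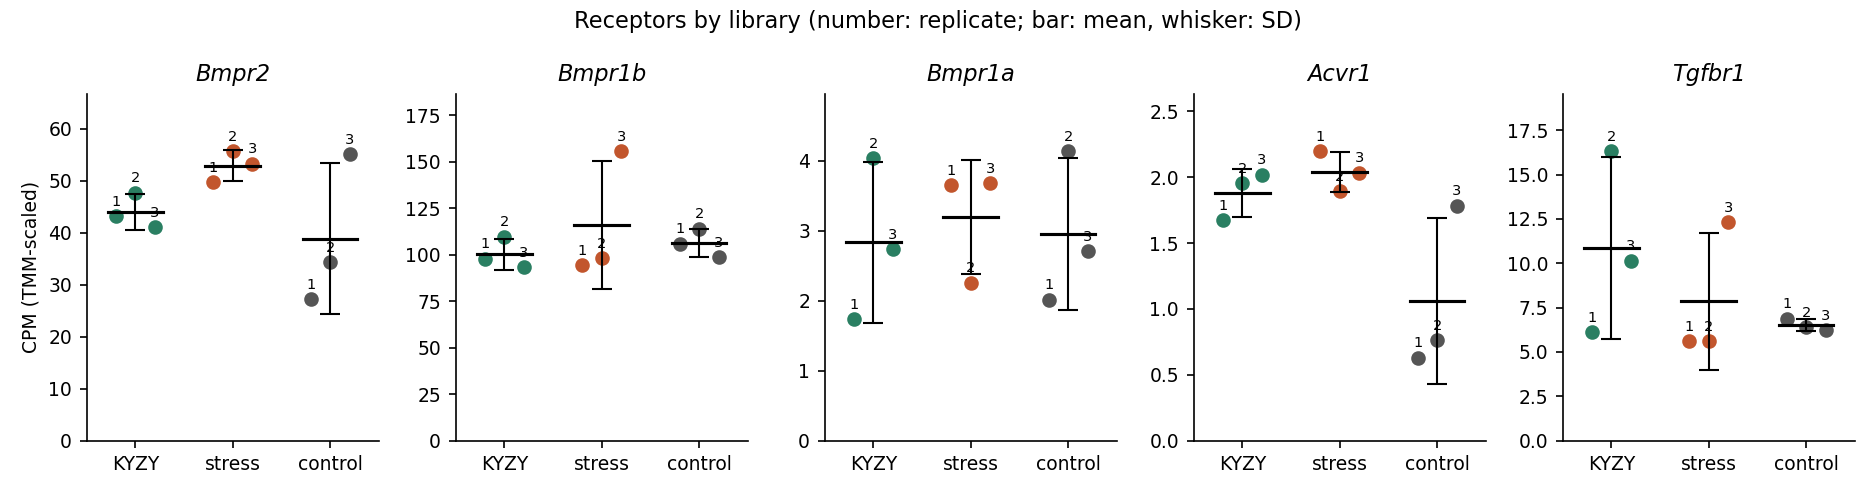
CPM of the 5 receptors in each library, with KYZY, stress and control from left to right, numbered points for libraries, thick bars for means and whiskers for SD (n = 3 each). With the TMM scaling plotted, stress and control libraries do not overlap for Acvr1 and KYZY and stress libraries do not overlap for Bmpr2, while both pairs overlap in unscaled CPM. Tgfbr1 is above 10 CPM in KYZY 2, KYZY 3 and stress 3.

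The comparison of stress with control asks how chronic stress bears on the oocyte. By edgeR's quasi-likelihood test 0 of the 9 genes passed an adjusted p of 0.05, as did 0 of all 13890 genes tested (0%). DESeq2 called 0 of the 9 genes, with 0.141% of its tested genes called. At an unadjusted p under 0.05 edgeR had 0 of the 9 genes, where 2.69% of all genes reached it. The groups did not overlap for 1 of the 9 genes, Acvr1, where 7.88% of all genes did not overlap, and in unscaled CPM for 0 of the 9, where 5.57% of all genes did not. Stress libraries had the higher fitted level for 8 of the 9 genes and the lower one for Fgf8, with a median log2 fold change of 0.14 against -0.03 over all genes tested. All 5 receptors were among those 8. Without the 4 libraries of high cumulus marker level, 4 of the 9 genes, 2 of the 5 receptors among them, were higher in stress and 5 lower, with a median of -0.04. In that fit edgeR called 0 of the 9 genes and 1.04% of 14220 genes tested, and without control 3 alone it called 0 of the 9 and 2 of all genes.

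Setting KYZY against stress asks whether the recipe moves the oocytes of stressed mice. Again 0 of the 9 genes passed in edgeR (0% of all genes) or in DESeq2 (0.0831% of all genes), and 0 had an unadjusted edgeR p under 0.05, against 3.98% of all genes. KYZY and stress libraries did not overlap for 2 of the 9, Fgf8 and Bmpr2, both lower in KYZY, where 9.19% of all genes did not overlap. In unscaled CPM this held for 0 of the 9, where 6.93% of all genes did not overlap. The fitted level was lower in KYZY for 8 of the 9 and higher for Tgfbr1, with a median log2 fold change of -0.17 against 0.01 over all genes. Without the same 4 libraries 5 were higher and 4 lower in KYZY, with a median of 0.04, and edgeR called 0 of the 9 and 0.809% of all genes. With so few genes, most of them near a fold change of 1, these counts of direction are a description only.

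Between KYZY and control, 0 of the 9 genes passed in edgeR (0% of all genes) or in DESeq2 (0.0053% of all genes). The unadjusted edgeR p was under 0.05 for 1 of the 9, Fgf8, against 2.74% of all genes, and the groups overlapped for all 9 genes, where 7.23% of all genes did not overlap. In unscaled CPM they also overlapped for all 9, where 7.64% of all genes did not. The fitted level was higher in KYZY for 4 genes (Bmp15, Bmpr2, Acvr1 and Tgfbr1) and lower for 5, of which Bmpr1a turned to a log2 fold change of 0.004 under RLE scaling, with a median log2 fold change of -0.05 against -0.003 over all genes. Without the 4 libraries 5 genes were higher and 4 lower, with a median of 0.32, and 0 of the 9 were called, where 0.837% of all genes were. The 3 comparisons share libraries, so their values are not independent of each other.

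**Figure D4:**
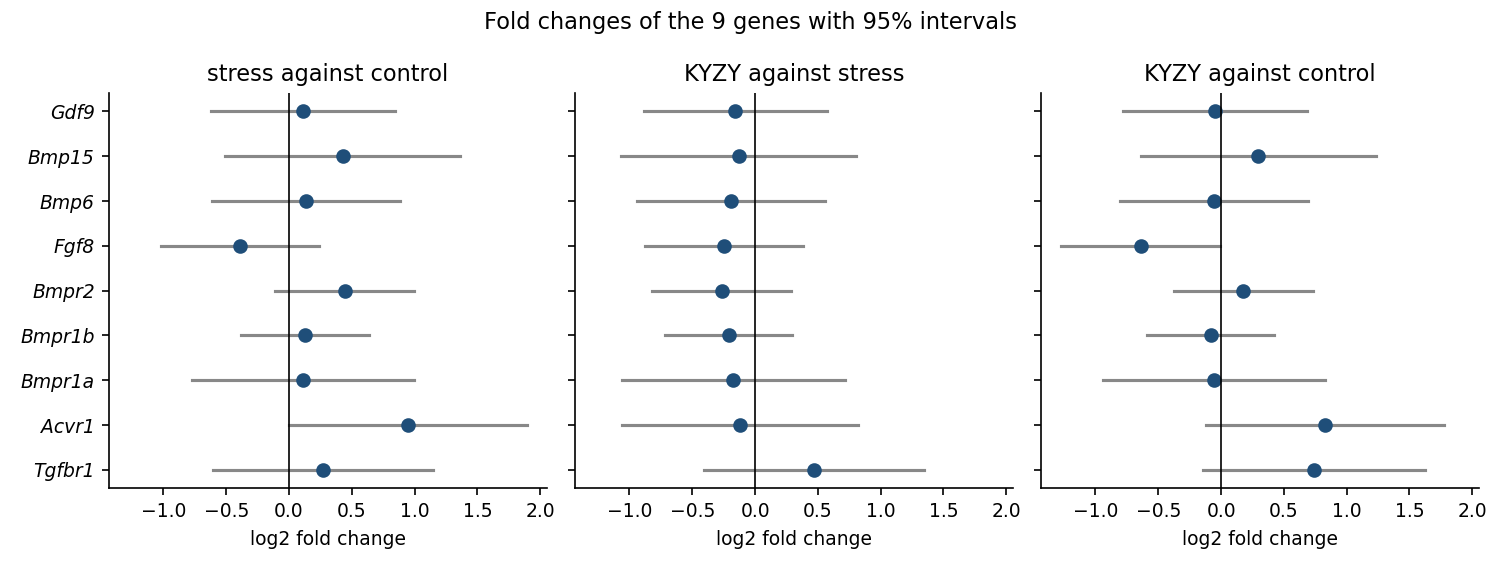
Fitted log2 fold change (points) and 95% interval (lines) of the 9 genes in stress against control, KYZY against stress and KYZY against control, from edgeR over all 9 libraries. Among the 27 intervals, that of Fgf8 in KYZY against control, around a log2 fold change of -0.64, lies just below 0, and that of Acvr1 in stress against control, around 0.945, reaches 0 narrowly.

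The other genes of the pathway were counted in the same fit, list by list, beside all 13890 genes, of which 6392 were higher in stress against control, 7050 in KYZY against stress and 6902 in KYZY against control. Medians of log2 fold changes are given in the order of these 3 comparisons, and over all genes they were -0.03, 0.01 and -0.003. Each list is also given without KYZY 2, KYZY 3, stress 3 and control 3, over those of its genes that could still be tested, with the KYZY group then being KYZY 1 alone. Over all genes the medians were then 0.02, -0.075 and -0.04.

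Smad proteins carry the signal from these receptors to the nucleus. Of 8 Smad genes 6 could be tested, and 0 passed in any comparison, with 3 higher and 3 lower in stress against control, 1 higher and 5 lower in KYZY against stress, and 2 higher and 4 lower in KYZY against control. Their medians were 0.04, -0.14 and -0.28, and without the 4 libraries they were -0.065, 0.15 and 0.01, with 0 called. Smad3, which acts downstream of Tgfbr1, was at 190 ± 64.4 CPM in KYZY, 197 ± 16.3 CPM in stress and 171 ± 35.6 CPM in control libraries (SD, n = 3 each). Smad2, its close relative, was at 38.0 ± 7.95 CPM in KYZY, 42.2 ± 1.48 CPM in stress and 43.6 ± 8.29 CPM in control libraries, and Smad4, the shared partner of the family, at 11.2 ± 2.59 CPM in KYZY, 15.6 ± 3.85 CPM in stress and 14.3 ± 5.53 CPM in control libraries.

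Among 18 other ligands of the TGF-beta family 8 could be tested, of which 6, 5 and 6 were higher in stress against control, KYZY against stress and KYZY against control, and 0 passed. Their median log2 fold changes were 0.15, 0.35 and 1.04. Inha and Inhba, which encode inhibin and activin subunits and are also in the list of cumulus and granulosa cell markers, were near 0 outside the 4 libraries of high marker level. Inha was at 0.221, 10.9 and 21.5 CPM in KYZY libraries 1 to 3, 0, 0.279 and 5.12 CPM in stress libraries and 0, 0.325 and 7.55 CPM in control libraries. Without the 4 libraries 5 genes could still be tested, with medians of 0.085, 0.35 and 0.455 and 0 called, where the same 5 had 0.15, -0.08 and 0.12 with all libraries. Tgfb2 was at 505 ± 146 CPM in KYZY, 501 ± 49.0 CPM in stress and 451 ± 32.5 CPM in control libraries, and Bmp5 at 155 ± 30.9 CPM in KYZY, 164 ± 27.1 CPM in stress and 143 ± 33.3 CPM in control libraries (SD, n = 3 each). Both encode secreted ligands, and for both the ranges of the 3 groups overlapped. Tgfb3 was at 12.8 ± 4.44 CPM in KYZY, 15.6 ± 3.13 CPM in stress and 14.6 ± 1.62 CPM in control libraries.

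Of 14 other receptors and coreceptors 13 were in the tables and 10 could be tested, with 3 higher and 7 lower in stress against control, 7 higher and 3 lower in KYZY against stress, and 8 higher and 2 lower in KYZY against control. None of them passed, and the median log2 fold changes were -0.15, 0.42 and 0.28. The 8 still tested without the 4 libraries had medians of 0.13, 0.06 and 0.22, against -0.10, 0.15 and 0.05 for the same 8 with all libraries. Rgmb, a BMP coreceptor, was at 19.3 ± 3.87 CPM in KYZY, 22.7 ± 10.3 CPM in stress and 18.7 ± 5.10 CPM in control libraries, and Acvr1b, an activin type I receptor, at 14.8 ± 3.41 CPM in KYZY, 12.5 ± 0.812 CPM in stress and 14.3 ± 2.43 CPM in control libraries (SD, n = 3 each). Tgfbr3, the coreceptor betaglycan, was at 17.2 ± 5.72 CPM in KYZY, 11.4 ± 4.16 CPM in stress and 12.2 ± 6.67 CPM in control libraries. Without the 4 libraries it was the 1 called gene of the list, in KYZY against control, at a log2 fold change of 1.41 (edgeR adjusted p of 0.0365). That value rests on 21.7 CPM in KYZY 1 against 7.79 and 8.88 CPM in controls 1 and 2.

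Inhibitors of the pathway were represented by 18 genes, of which 13 could be tested and 0 passed. They were 8 higher and 5 lower in stress against control, 8 higher and 5 lower in KYZY against stress, and 9 higher and 4 lower in KYZY against control, with median log2 fold changes of 0.09, 0.56 and 0.45. The 9 still tested without the 4 libraries had medians of 0.17, 0.18 and 0, against 0.09, -0.05 and 0.20 with all libraries. One of them was then called, the extracellular protein gene Fstl1 in KYZY against control, at a log2 fold change of 3.04 (edgeR adjusted p of 0.0451) from 2.54 CPM in KYZY 1 against 0.43 and 0.21 CPM in controls 1 and 2. Ski, a nuclear repressor of Smad-driven transcription, was at 348 ± 88.5 CPM in KYZY, 423 ± 128 CPM in stress and 287 ± 80.3 CPM in control libraries (SD, n = 3 each). In unscaled CPM all 3 stress libraries lay above all 3 control libraries for Ski, but not after TMM scaling. Fkbp1a, which holds type I receptors inactive, was at 185 ± 21.6 CPM in KYZY, 131 ± 9.80 CPM in stress and 135 ± 51.1 CPM in control libraries, with no overlap between KYZY and stress libraries after TMM scaling, an overlap in unscaled CPM, and an edgeR adjusted p of 0.935. Smurf2, a ubiquitin ligase that removes receptors and Smads, was at 35.0 ± 7.61 CPM in KYZY, 36.2 ± 3.96 CPM in stress and 37.3 ± 9.15 CPM in control libraries. The extracellular antagonist Fstl3 was singled out after its values were seen, since its 3 KYZY libraries lay below all stress and all control libraries after TMM scaling. In unscaled CPM they lay below all control libraries and overlapped the stress libraries. It was at 2.56 ± 0.290 CPM in KYZY, 4.25 ± 1.01 CPM in stress and 3.99 ± 0.293 CPM in control libraries, with unadjusted edgeR p values of 0.02 and 0.0363 and adjusted values of 0.935 and 0.996 for KYZY against stress and against control. Fstl3 was not alone in such a separation. Smad5, Spred2 and Etv4 of the other pathway lists lay lower in all stress than in all control libraries on both scales. Their unadjusted edgeR p values were 0.0681, 0.0262 and 0.511. Of all genes 7.88% did not overlap in that comparison after TMM scaling and 5.57% in unscaled CPM.

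Proprotein convertases cleave these ligands into their active form, and 4 of 4 could be tested with 0 passing. The higher ones numbered 2, 2 and 3 in stress against control, KYZY against stress and KYZY against control, and the median log2 fold changes were 0.03, 0.45 and 0.19. With the 4 libraries left out the higher ones numbered 1, 4 and 3, with medians of -0.08, 0.40 and 0.40 and 0 called. Furin was at 61.4 ± 12.3 CPM in KYZY, 63.2 ± 8.88 CPM in stress and 55.4 ± 11.1 CPM in control libraries, and Pcsk7 at 4.33 ± 1.66 CPM in KYZY, 5.10 ± 1.90 CPM in stress and 5.57 ± 1.98 CPM in control libraries (SD, n = 3 each). Pcsk5 was at 27.2 ± 37.0 CPM in KYZY, 4.76 ± 6.21 CPM in stress and 2.02 ± 1.54 CPM in control libraries, with an SD above the mean in KYZY and stress. It was highest in the 4 libraries of high marker level, at 69.7 CPM in KYZY 2, 10.2 in KYZY 3, 11.9 in stress 3 and 3.75 in control 3. The other libraries had 0.773 to 1.66 CPM.

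On the FGF side, 13 of 15 receptor and feedback genes could be tested, with 3 higher and 10 lower in stress against control, 7 higher and 6 lower in KYZY against stress, and 4 higher and 9 lower in KYZY against control, and 0 passing. The medians of the list were -0.11, 0.05 and -0.25. The 12 still tested without the 4 libraries had medians of -0.29, 0.18 and -0.27, and 1 was called, the FGF receptor partner Flrt3 in stress against control, at -3.54 (edgeR adjusted p of 0.0364) with 0.123 and 0.419 CPM in stress 1 and 2 against 2.07 and 4.42 CPM in controls 1 and 2. Spry4, a feedback inhibitor of FGF signalling, was at 1336 ± 386 CPM in KYZY, 1667 ± 219 CPM in stress and 1587 ± 560.4 CPM in control libraries (SD, n = 3 each). Spry1, a relative of Spry4, was at 13.2 ± 4.62 CPM in KYZY, 14.6 ± 2.74 CPM in stress and 15.6 ± 1.17 CPM in control libraries. The receptor Fgfr2 was at 15.1 ± 0.922 CPM in KYZY, 13.4 ± 3.296 CPM in stress and 14.1 ± 1.59 CPM in control libraries. After TMM scaling the ranges of these 3 genes overlapped between all groups, and in unscaled CPM Spry4 lay lower in all 3 KYZY than in all 3 stress libraries.

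Factors known to bear on Gdf9 and Bmp15 transcription in mouse oocytes gave 6 of 7 genes that could be tested, with 5, 2 and 4 higher in stress against control, KYZY against stress and KYZY against control, and 0 passing. Median log2 fold changes of these factors were 0.19, -0.10 and 0.02, and without the 4 libraries they were -0.003, 0.135 and 0.07, with 0 called. Nobox was at 533 ± 116 CPM in KYZY, 604 ± 89.7 CPM in stress and 517 ± 184 CPM in control libraries, and Lhx8, another homeobox factor of oocytes, at 401 ± 68.2 CPM in KYZY, 463 ± 27.2 CPM in stress and 400.0 ± 119 CPM in control libraries (SD, n = 3 each). Nr6a1, a nuclear receptor that represses both ligand genes, was at 52.6 ± 3.48 CPM in KYZY, 46.8 ± 1.86 CPM in stress and 45.7 ± 9.31 CPM in control libraries. All 3 KYZY libraries lay above all 3 stress libraries for Nr6a1 after TMM scaling but not in unscaled CPM, with an edgeR adjusted p of 0.935.

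Genes that GDF9, BMP15 and FGF8 are known to act on in cumulus cells were looked at apart, since some of them, Hsd3b1 and Tnfaip6 included, are also in the list of cumulus and granulosa cell markers. Of 14 such genes 12 could be tested and 0 passed, with 6 higher and 6 lower in stress against control, 11 higher and 1 lower in KYZY against stress, and 11 higher and 1 lower in KYZY against control. The median log2 fold change was -0.09, 2.16 and 1.98 in these comparisons. The 7 still tested without the 4 libraries had medians of 0.535, -0.23 and 0.52, against -0.96, 2.26 and 1.52 for the same 7 with all libraries, and 0 were called. Of the 22 cumulus and granulosa cell markers tested, 11, 21 and 20 were higher in the same comparisons, with medians of 0.09, 1.82 and 1.82. The 15 still tested without the 4 libraries had medians of 0.25, 0.32 and 0.25, against -0.26, 2.07 and 1.34 with all libraries. The marker score described below was above 2 in 2 KYZY, 1 stress and 1 control library. The share of cumulus cell RNA in this pattern was not tested. Hsd3b1, a steroidogenic enzyme, was at 63.0 ± 53.8 CPM in KYZY, 6.48 ± 5.99 CPM in stress and 15.8 ± 24.1 CPM in control libraries, and Tnfaip6, a matrix protein of cumulus expansion, at 8.97 ± 8.35 CPM in KYZY, 1.71 ± 2.97 CPM in stress and 0.647 ± 1.12 CPM in control libraries (SD, n = 3 each). Egfr, the receptor of the ovulatory EGF-like factors, was at 14.1 ± 1.75 CPM in KYZY, 23.4 ± 1.31 CPM in stress and 15.3 ± 2.84 CPM in control libraries. Stress libraries lay above control libraries without overlap after TMM scaling, but not in unscaled CPM, at a log2 fold change of 0.61 ± 0.20 (SE) with an unadjusted edgeR p of 0.0113 and an adjusted p of 1. KYZY libraries lay below stress libraries without overlap on both scales, at -0.73 ± 0.20 (SE) with an unadjusted edgeR p of 0.00438 and an adjusted p of 0.935. Those comparisons share the stress libraries.

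The marker score, the mean of log2(CPM + 1) over the 26 cumulus and granulosa cell markers, was 1.26, 2.80 and 2.85 in KYZY libraries 1 to 3, against 0.98, 1.29 and 2.05 in stress libraries and 1.00, 1.28 and 2.33 in control libraries. In the 4 libraries of highest score Bmp6 was at 4.71 to 7.39 CPM, against 7.79 to 11.2 CPM in the other 5. It was the 1 of 9 genes without overlap between these 4 and 5 libraries after TMM scaling, a split at which 17.0% of all genes tested did not overlap. Bmp15 was at 2090 to 3618 CPM in the 4 libraries and at 2815 to 6089 CPM in the other 5, and Gdf9 at 9848 to 15490 CPM in the 4 and at 10460 to 16020 CPM in the other 5. In unscaled CPM it was Gdf9 and Bmp15 that did not overlap, 2 of the 9 genes, where 13.6% of all genes did not. Gdf9 then had 10420 to 12380 CPM in the 4 libraries against 13170 to 13860 in the other 5, Bmp15 had 2225 to 2892 against 3564 to 5195, and Bmp6, at 4.73 to 7.82 against 6.84 to 12.5, overlapped. Tgfbr1 had 6.24 to 16.3 CPM in the 4 and 5.60 to 6.88 CPM in the other 5. With the 4 libraries left out together, Tgfbr1 in KYZY against control was at a log2 fold change of -0.085 in place of 0.74, and Acvr1 in stress against control was at 1.56 in place of 0.945. The KYZY group then held the single library KYZY 1, whose spread was taken from the other groups, and 0 of the 9 genes passed in any comparison, where edgeR called 148, 115 and 119 of all genes in stress against control, KYZY against stress and KYZY against control.

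**Figure D5:**
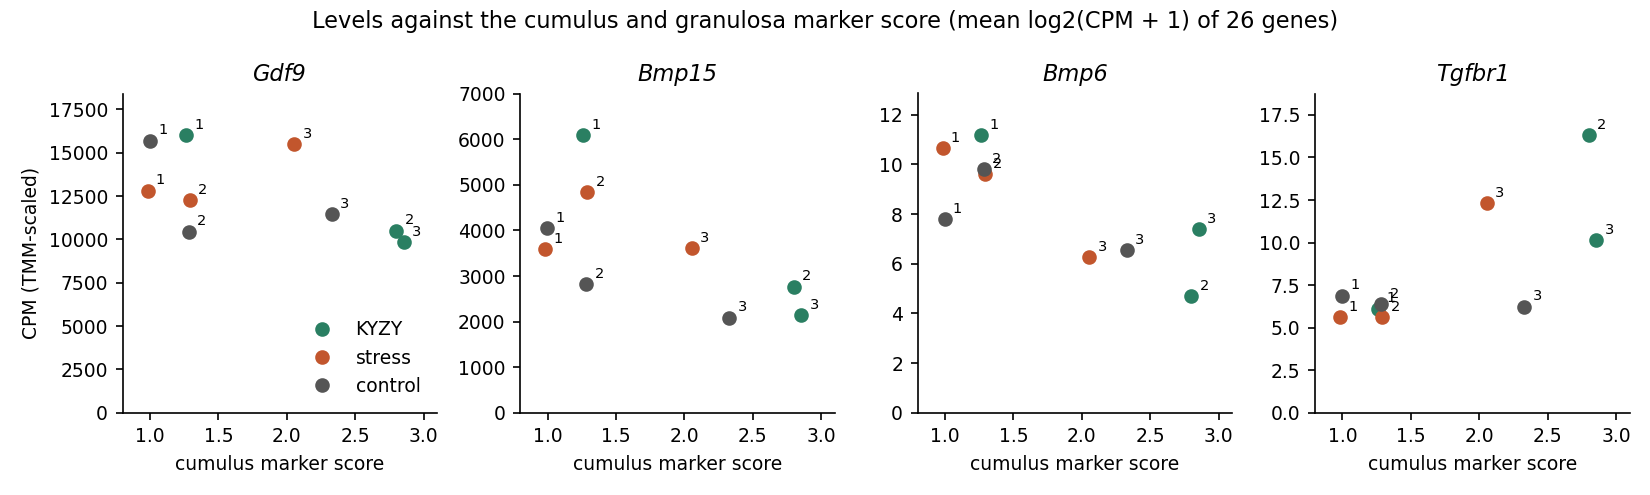
CPM of Gdf9, Bmp15, Bmp6 and Tgfbr1 in each library against the cumulus and granulosa cell marker score, with numbered points coloured by group (KYZY, stress, control). The 4 libraries with a score above 2 have the lowest Bmp6 levels with the TMM scaling plotted, at 4.71 to 7.39 CPM, and 3 of them have the highest Tgfbr1 levels, above 10 CPM.

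For each of the 9 genes the others whose levels ran most alike over the 9 libraries were found by the root mean square difference of log2(CPM + 1), each gene centred on its own mean, among 9763 other genes of at least 1 CPM. Gdf9 was nearest to Lmo7 at a difference of 0.0784 and to Phf1 at 0.0792, and Bmp15 was nearest to Zp2 at 0.132 and Padi6 at 0.163. Bmpr1b was nearest to Capn7 at 0.0697 and Sdf2l1 at 0.0769, and Bmpr2 to Ttn at 0.116 and Oraov1 at 0.136. Acvr1 was nearest to Rbm26 at 0.106 and also to Ttn at 0.127. Bmp6 was nearest to Zkscan5 at 0.0889 and Rhobtb2 at 0.101, and Fgf8 to Wdr75 at 0.0875 and Zfp296 at 0.114. The nearest genes to Bmpr1a were Timmdc1 at 0.135 and Tbcd at 0.148, and those to Tgfbr1 were Phf20l1 at 0.135 and Pfkp at 0.154. No other member of the 9 was among the nearest 2 of any of them. These distances describe the 9 libraries, which share depth and groups, and genes that vary little are near to many others.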

How the data were processed

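RNA of 15 pooled oocytes per mouse was amplified with SMART-Seq v4 and cut with Tn5, without molecular identifiers, per the labels' protocols, so p-values measure the spread between mice and floors cover counting error only. The deposited tables hold expected counts, a unit read from the values, 1 table per library. The submitters' processing notes list the builds GRCm38 and mm10 and, as tools, StringTie, HISAT2, DESeq2, Trim Galore and bcl2fastq (2.20). Values of 4 were more frequent than values of 3 or 5, so that 1 read pair was taken as 4 counts, an assumption since no source names the unit, and a gene at 0 as under 3 read pairs, or 12 counts (0.105 to 0.245 CPM).

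Counts were rounded and fitted in R 4.3.3 with edgeR 4.0.16: TMM scaling, filterByExpr (minimum count 10, minimum total 15), which kept 13890 of 24736 genes, all 9 genes of interest among them, and 1 robust quasi-likelihood model over all 9 libraries with 6 residual degrees of freedom. Tests were 2-sided, with Benjamini-Hochberg adjustment over all genes tested and a threshold of 0.05. On simulated counts with known changes recovery for stress against control was 6% at a 2-fold change, 66% at 4-fold and 84% at 8-fold. DESeq2 1.42.0, RLE scaling, no filter, counts divided by 4, a replicate block and left-out libraries were the alternatives. Group overlaps in unscaled CPM, also of the 4 libraries of high cumulus marker level against the other 5, and the pathway lists without those 4 were added after the data had been seen. Libraries of the same number deviated together in stress and control (correlations of 0.165, 0.376 and 0.345), although the labels give separate mice. Stress and control libraries of different number had correlations of -0.464 to 0.345, so such a pair could be as high. The block changed no call.

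Symbols matched RefSeq for 24076 of 24736 genes (97.33%). Lengths are GENCODE M21 transcripts of GRCm38, used in place of RefSeq mRNA lengths. Promoter windows are from RefSeq. The 9 genes and all lists were chosen with earlier results of these data known. The text names all 9 genes, the 3 most abundant of each pathway list, and the 2 nearest genes of each of the 9. Fstl3, Smad5, Spred2 and Etv4 were named after their values were seen.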

Additional observations from a re-analysis of the deposited data

How the results depend on the processing

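No alternative brought any of the 9 genes past the threshold: 0 were called in each comparison under each setting, although edgeR called 2, 1 and 3 of all genes without control 3 and 148, 115 and 119 without KYZY 2, KYZY 3, stress 3 and control 3 together (stress against control, KYZY against stress, KYZY against control). Members had adjusted p values of 0.117 to 1 in stress against control, 0.581 to 1 in KYZY against stress and 0.465 to 1 in KYZY against control. All 27 log2 fold changes kept their direction with DESeq2, counts divided by 4, no filter and the replicate block. With the replicate block Acvr1 was at 1.06 in stress against control (adjusted p of 1 in edgeR) and Fgf8 at -0.61 in KYZY against control (adjusted p of 0.859). Same-numbered KYZY and control libraries had deviation correlations of 0.558, -0.099 and 0.643, and same-numbered KYZY and stress libraries 0.344, -0.196 and 0.102. So few pairs cannot decide whether the numbers pair the samples. With RLE scaling 1 value changed sign, Bmpr1a in KYZY against control at 0.004.

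Without KYZY 2, KYZY 3, stress 3 and control 3 together, 11 values changed sign. In stress against control these were Gdf9 at -0.049, Bmpr1a at -0.044, Bmpr1b at -0.18 and Tgfbr1 at -0.23. In KYZY against stress they were Gdf9 at 0.37, Bmp15 at 0.55, Bmp6 at 0.15 and Bmpr1b at 0.039, and in KYZY against control Gdf9 at 0.32, Bmp6 at 0.37 and Tgfbr1 at -0.085. The cause was not tested.

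Leaving out 1 library at a time turned the sign in 22 of 243 values, and each library other than control 3 did so for at least 1 gene. The ranges that crossed 0 in stress against control were -0.015 to 0.305 for Gdf9, -0.023 to 0.33 for Bmp6, -0.10 to 0.42 for Bmpr1a, -0.14 to 0.25 for Bmpr1b and -0.21 to 0.46 for Tgfbr1. In KYZY against stress they were -0.71 to 0.16 for Bmp15, -0.56 to 0.066 for Bmp6, -0.52 to 0.08 for Bmpr1a and -0.31 to 0.057 for Bmpr1b. In KYZY against control they were -0.30 to 0.14 for Gdf9, -0.28 to 0.58 for Bmp15, -0.42 to 0.20 for Bmp6, -0.41 to 0.27 for Bmpr1a and -0.027 to 0.55 for Bmpr2. Bmpr2 and Acvr1 in stress against control kept their signs, at 0.24 to 0.79 and 0.68 to 1.55, as did Tgfbr1 in KYZY against stress, at 0.049 to 0.951, and against control, at 0.32 to 1.02, and Fgf8 in KYZY against control, at -0.86 to -0.40. With 3 libraries a group, a 2-fold difference would usually have been missed, and Acvr1 and Bmpr1a are further limited by their few reads.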
